A study of Bos taurus with 8 samples.

Results

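After 7 days of heat, the blood mononuclear cells of 2 kinds of cattle were compared: Tharparkar, an Indian zebu breed, against crossbred cattle, whose parent breeds the labels do not give. The samples were selected by their breed and day labels, and are 4 of the 8 samples of the series, those of day 7, which form 2 of its 4 groups. Each group is RNA of peripheral blood mononuclear cells pooled from 5 animals of 1 breed on 1 day, deposited as 2 files, and both day 7 groups had been held in heat for 7 days. The age, sex and genotype of the animals and the temperature are not in the labels used here, which give Bos taurus as the organism of both breeds. The day 0 samples, taken from both breeds before the heat, are used below to show where the day 7 comparison stood beforehand, and they also entered the filter on low counts and the scaling.

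Peripheral blood mononuclear cells are mainly lymphocytes and monocytes, the cells of adaptive immunity and of early inflammatory signalling. In heat, mammalian cells make heat shock proteins, chaperones that refold or dispose of damaged proteins and that are switched on by heat shock factors. Stress hormones released in heat-exposed animals also change which white cells circulate and what they express, and zebu cattle are known for tolerating heat better than taurine cattle. The series asked whether the breeds respond to heat differently, and the day 7 comparison bears on how far apart they stood after it.

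The 2 files of a group are not replicates. Their expected counts (estimated reads per gene, in which an ambiguous read is divided among the genes it fits) differed by less than the sampling noise of independent reads, with a median chi-square ratio of 0.112 in crossbred and 0.0799 in Tharparkar, where independent reads of 1 library give 1. They were averaged and counted as 1 library a side, so no difference below has a replicate check or a p-value, and the spread between animals was not measured. The averaged libraries held 7929406 counts in crossbred and 5201318 in Tharparkar, and 11711 of the 24596 listed genes passed the filter on low counts. Levels are in CPM (counts per 1000000 after scaling), and differences are Tharparkar minus crossbred in log2 CPM. The files pair none of the 24596 Ensembl IDs with a gene name and 0 matched the gene table at hand, so heat shock genes, immune genes and markers of the cell types could not be looked up, and the labelled cell type was not checked against its markers. In pooled bulk RNA, fewer cells of a type and less RNA per cell cannot be told apart.

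More genes were lower than higher in Tharparkar at day 7. Of 11711 genes, 1147 were lower by at least 1 log2 unit, or 2-fold, which is 9.79% of those compared, and 595 were higher, which is 5.08%. Together they made up 14.9%. The ratio of lower to higher genes grew up to 8-fold. At 2 log2 units, or 4-fold, 179 genes were lower and 68 higher, and at 3 log2 units, or 8-fold, 41 were lower and 7 higher. Beyond 4 log2 units, or 16-fold, 4 were lower and 2 higher. The lower genes held 5.93% of the counts of the crossbred library and 1.91% of those of the Tharparkar library, and the higher genes held 1.52% and 3.40%. The remaining genes held 92.6% of the crossbred and 94.7% of the Tharparkar counts. The genome to which reads of this zebu breed and of the crossbred cattle were mapped is not given in the sources used here. The part of unequal mapping between the breeds in these counts was not tested. Of the genes past 1 log2 unit at day 7, 49 had differed by that much in the same direction at day 0 and 286 in the opposite one. Over all genes compared, 3.10% were higher and 3.92% lower in Tharparkar by that much at day 0.

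Lower genes outnumbered higher ones under each scaling and unit tried, by different amounts. The higher genes were 34.2% of those past 1 log2 unit with TMM factors (which equalise the bulk of genes between libraries), 20.7% with total counts, 15.3% with TPM and 20.7% with FPKM. The last 2 are the deposited levels per length, taken as log2(value + 1), so they differ from the others in the offset as well. Against TMM, total counts moved the median difference of all genes by -0.16 log2 units and TPM by -0.25, so differences here are relative to a gene at the median.

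Among the genes chosen for a difference of at least 1 log2 unit, most had counts large enough to give the direction of that difference. The choice itself favours such genes, and no share over all genes compared is given. The exact 95% counting interval of the ratio left out 0 for 1033 of the 1147 lower genes and for 533 of the 595 higher ones. It lay wholly beyond 1 log2 unit for 355 lower and 157 higher genes. With no molecular identifiers these intervals describe counting error alone, and they say nothing of other pools of animals. Some of the lower genes had 3 counts or fewer in the Tharparkar library, and some of the higher genes had as few in the crossbred library. In 17 of all 1742 genes the 2 files of a group lay at least 1 log2 unit apart.

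**Figure D1:**
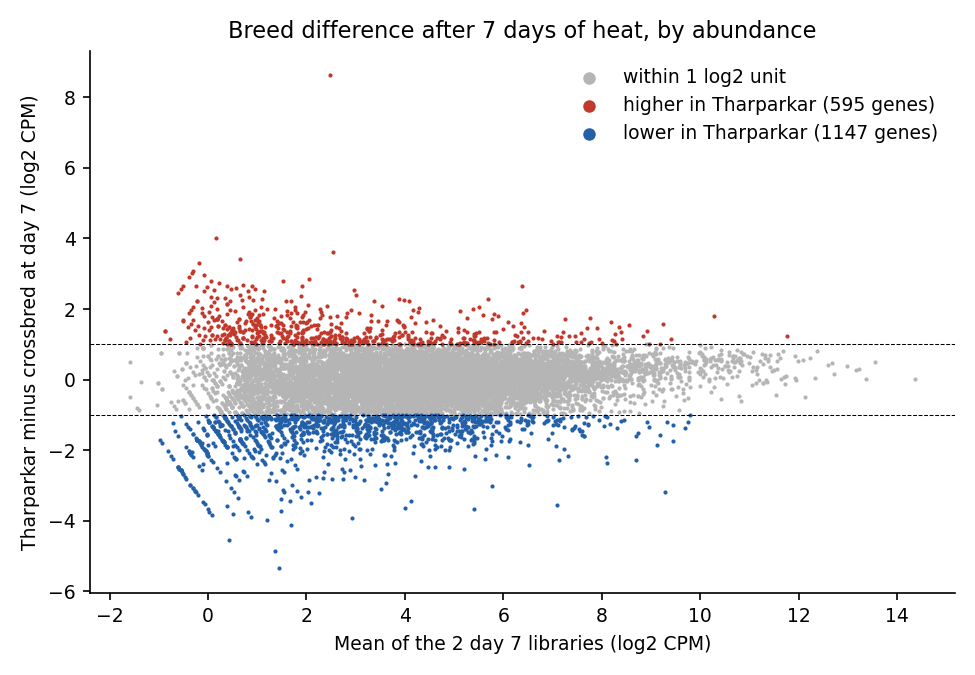
Each point is 1 of 11711 genes, with the mean of the 2 day 7 libraries (log2 CPM) on the horizontal axis and Tharparkar minus crossbred (log2 CPM) on the vertical axis. Red marks the 595 genes higher and blue the 1147 lower in Tharparkar by at least 1 log2 unit (dashed lines), which lie mostly at low and middle abundance.

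How often genes differed went with their abundance. Genes with a mean of 1 to 10 CPM over the day 7 libraries passed 1 log2 unit in 24.3% of 3623 cases, against 9.87% of 6152 genes at 10 to 100 CPM and 7.53% of 1513 genes at 100 to 1000 CPM. Of the 144 genes above 1000 CPM, 2 were higher and 1 lower, or 2.08%, although at day 0 the same genes had passed it in 11.8% of cases, 13 higher and 4 lower. The 279 genes under 1 CPM could pass the filter on low counts through a single library. Their share of 49.5% may thus be partly fixed by the filter, and nothing is read from it. Genes near the lower edge of the 1 to 10 CPM class could enter in the same way. The 24.3% of that class may therefore be partly fixed by the filter too, which was not tested. The median difference moved with abundance from -0.11 at 1 to 10 CPM through -0.01 and 0.18 to 0.45 above 1000 CPM. As a class the most abundant genes were higher in Tharparkar, mostly by less than 1 log2 unit each. The 100 most abundant genes of each library held 33.3% of its counts in Tharparkar and 29.7% in crossbred at day 7, and 35.6% and 31.2% at day 0, so this gap was there before heat. At day 0 the same abundance classes had medians of -0.07, 0.02, 0.03 and 0.15, so above 1 CPM the class medians ran the same way over a smaller range. The depth of the libraries moves with this comparison, since 3 counts equal 0.346 CPM in the crossbred and 0.593 CPM in the Tharparkar library, and its part in the result was not tested.

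Gene length went with the direction of the difference. Among the shortest 20% of genes, of 143 to 1125 bases, 8.79% were higher and 6.44% lower in Tharparkar. Among the longest 20%, from 3130 bases upward, 3.16% were higher and 11.9% lower. At day 0 the same classes held 106 higher and 110 lower genes among the shortest and 56 and 95 among the longest, with median differences of 0.08 and -0.06, so the order was there before heat over a smaller range. In either direction together, 15.2% of the shortest and 15.0% of the longest genes passed 1 log2 unit. Within abundance, at 10 CPM or more, 7.92% of the shortest and 10.4% of the longest genes did so, and under 10 CPM 25.6% and 29.4% did. Genes of at least 10 CPM showed the same order, with a median difference of 0.29 among the shortest and -0.11 among the longest, and genes under 10 CPM had medians of 0.10 and -0.30. The mean gene length behind a count was 2273 bases in the crossbred and 2121 in the Tharparkar library at day 7, and 2241 and 2108 at day 0. The higher genes had a median length of 1521 bases and the lower genes one of 2153. RNA integrity numbers exceeded 8 per the labels, and the part of RNA quality in this order was not tested.

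**Figure D2:**
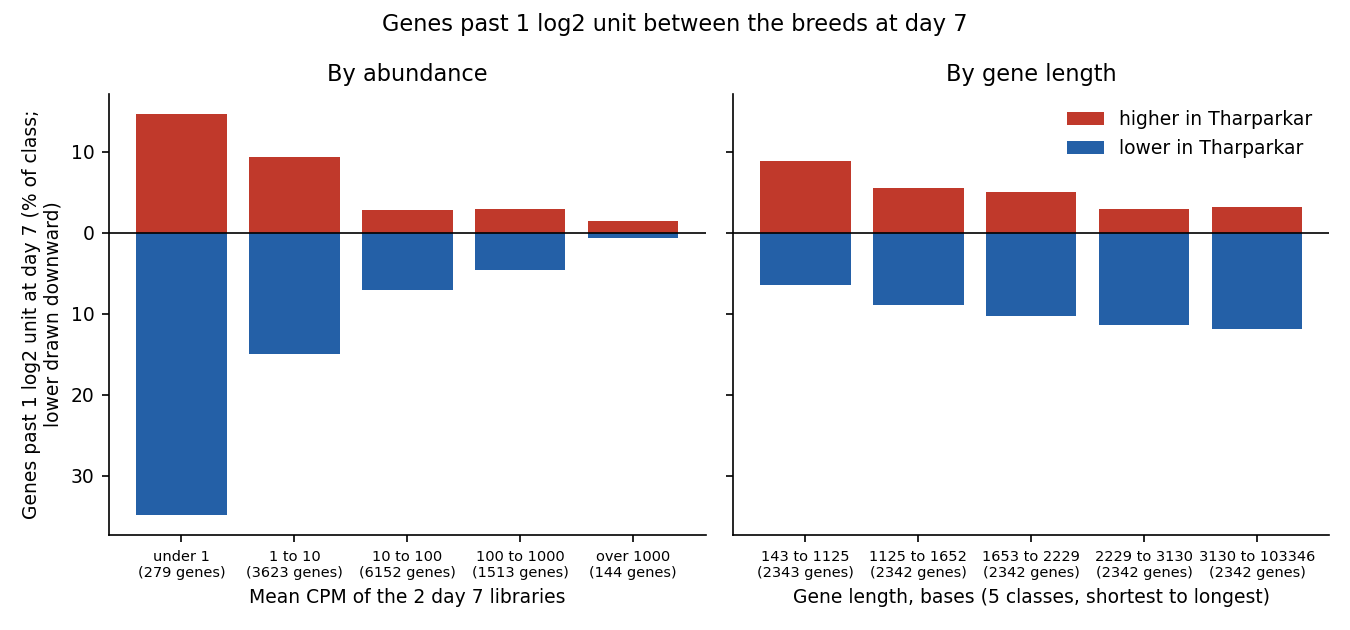
Bars give the percent of genes in a class that were higher (red, upward) or lower (blue, downward) in Tharparkar at day 7 by at least 1 log2 unit, by mean CPM on the left and by gene length in bases, in 5 classes of equal size, on the right. Lower genes outnumber higher ones in every class but the genes above 1000 CPM and the shortest genes.

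Genes that differed by 1 log2 unit after heat had differed before it more often than genes at large, and mostly in the other direction. At day 0, 70.6% of the genes higher and 86.1% of those lower at day 7 lay within 1 log2 unit, against 93.0% of all genes. Of the 1147 genes lower in Tharparkar at day 7, 987 lay within 1 log2 unit at day 0, 33 were already lower and 127 had been higher. Of the 595 genes higher at day 7, 420 lay within, 16 were already higher and 159 had been lower. For comparison, 3.10% of all genes were higher and 3.92% lower in Tharparkar at day 0, or 7.02% in either direction. So 49 genes held a difference of 1 log2 unit in the same direction on both days, and 286 held one in opposite directions. The 16 already higher are 2.69% of the genes higher at day 7 and 4.41% of those higher at day 0. The 33 already lower are 2.88% of the genes lower at day 7 and 7.19% of those lower at day 0. The 159 that had been lower are 26.7% of the genes higher at day 7. The 127 that had been higher are 11.1% of the genes lower at day 7. How often genes differed at day 0 also went with abundance. At 1 to 10 CPM 13.2% of genes passed 1 log2 unit at day 0, and at 10 to 100 CPM 2.91% did. The genes that differed at day 7 lie mostly at low and middle abundance. The next numbers are for genes with a mean of 10 CPM or more over the day 7 libraries. Of those higher at day 7, 165 lay within 1 log2 unit at day 0, 52 had been lower and 0 higher. Of those lower at day 7, 456 lay within, 51 had been higher and 0 lower. Of those within 1 log2 unit at day 7, 6953 lay within at day 0, 96 had been higher and 36 lower. The part of abundance was not tested. The 2 comparisons share no library, and each rests on 1 pool a side.

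The turn was not limited to genes past 1 log2 unit at day 0. Among the genes higher at day 7, 79.3% had a negative difference at day 0, where 49.7% of all genes did. That is 472 genes, of which 159 were past 1 log2 unit at day 0. Among the genes lower at day 7, 68.7% had a positive difference at day 0, where 50.3% of all genes did. That is 788 genes, of which 127 were past 1 log2 unit at day 0. Genes could enter the comparison through a day 0 library alone, so the filter was repeated on the day 7 libraries only, an alternative chosen after seeing the data. These shares were then 81.4% of 511 genes and 69.7% of 1067, with 27 genes past 1 log2 unit in the same direction on both days and 246 in opposite ones. The median day 0 difference rose in steps as the day 7 difference fell. It was -0.77 for the 68 genes higher by 2 log2 units or more at day 7, -0.63 for the 527 between 1 and 2, 0.01 for the 6753 genes within 0.5, 0.24 for the 968 lower by 1 to 2, and 0.43 for the 179 lower by more than 2. With only genes at a mean of 10 CPM or more in the 4 libraries, 1 gene past 1 log2 unit kept its direction and 96 turned it. Without a filter the numbers were 101 and 367, and with a prior count of 0.5 they were 81 and 370.

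**Figure D3:**
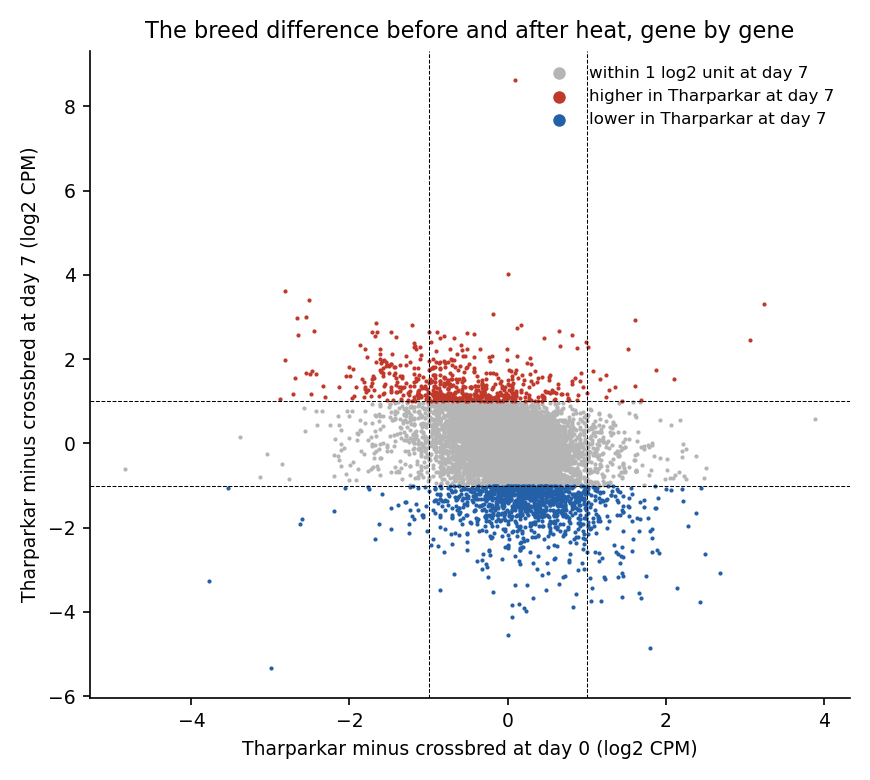
Each point is 1 of 11711 genes, with the breed difference (Tharparkar minus crossbred, log2 CPM) at day 0 on the horizontal axis and at day 7 on the vertical axis. Dashed lines mark 1 log2 unit: the upper left and lower right corners hold 286 genes and the upper right and lower left corners 49.

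The levels in the 4 libraries show the same turn. The genes higher in Tharparkar at day 7 had a median level of 2.63 log2 CPM in crossbred and 2.05 in Tharparkar at day 0. The day 7 medians were 1.58 in crossbred and 2.94 in Tharparkar. The genes lower in Tharparkar at day 7 had a median of 2.49 in crossbred and 2.76 in Tharparkar at day 0, and of 3.48 and 1.98 at day 7. The order and the wide gap at day 7 are fixed by the choice of genes, while the day 0 libraries entered only through the filter on low counts and the scaling. With the day 7 libraries alone in both steps, 478 of the 595 genes higher in Tharparkar were found again, as were 1072 of the 1147 lower ones.

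**Figure D4:**
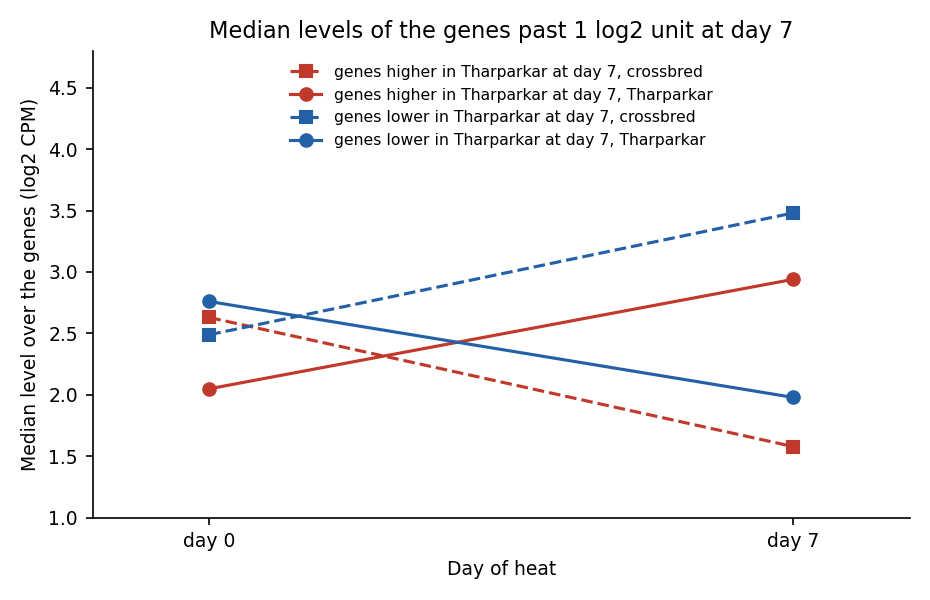
Median levels (log2 CPM, vertical axis) at day 0 and day 7 of the 595 genes higher (red) and the 1147 lower (blue) in Tharparkar at day 7, with dashed lines and squares for crossbred and full lines and circles for Tharparkar. The wide gap at day 7 is fixed by the choice of genes, and the order of the breeds at day 0 is the opposite one.

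Genes seen in 1 breed and not in the other were few at day 7. The numbers here are out of all 24596 listed genes, without the filter on low counts. At day 7, 12534 genes were above 3 counts in the crossbred library and 11837 in the Tharparkar library. At day 0, 12488 and 12030 were. With at most 3 counts in one library and at least 10 in the other, 25 genes were seen in Tharparkar and not in crossbred at day 7, and 240 were seen in crossbred and not in Tharparkar. The same imbalance was there at day 0, with 16 and 137 genes. At day 7, with at least 50 counts the numbers were 1 and 10. The crossbred library is the deeper on both days, and the part of depth in these numbers was not tested. Of the 240, 7 had also been seen in crossbred and not in Tharparkar at day 0, and 167 had been above 3 counts in both breeds. Of the 25, 1 had the same pattern at day 0, and 12 had been above 3 counts in both. The share of all listed genes above 3 counts in both breeds at day 0 is not given, so nothing is read from these.

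For single genes, an ID was eligible with at least 20 CPM in the higher library, files within 2-fold of each other there, and both files of a breed beyond both of the other. 187 IDs were eligible among the higher and 427 among the lower genes, and the 2 furthest in each direction are given. Their functions are not stated, since no name was at hand.

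ENSBTAG00000006963, a gene model of 597 bases, was seen in 1 library of the 4. Its expected counts at day 7 were 549.1 and 560.24 in the Tharparkar files, and 0 and 0 in the crossbred files. At day 0 they were 0 and 2.6 in Tharparkar and 3.12 and 0 in crossbred. Both Tharparkar day 7 files stood apart from all other files, and at 240 TPM this ID was abundant there. By the lower limit of the 95% counting interval it was at least 257-fold higher than in crossbred at day 7, and set against a floor of 3 counts in the crossbred library the ratio was 316. Its counts are not whole, so it shares reads with a similar gene and the value is uncertain.

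ENSBTAG00000019839, of 4681 bases, changed its order between the days. At day 7 it had 103 and 101 counts in Tharparkar and 13 and 11 in crossbred, a log2 difference of 3.62 (95% counting interval 3.0 to 4.86). At day 0 it had 7 and 8 counts in Tharparkar and 88 and 87 in crossbred, a log2 difference of -2.81 (-4.24 to -1.95). It was high in Tharparkar after heat and in crossbred before it. Its level per length was low, at 4.46 TPM in Tharparkar at day 7. Its log2 difference was 1.98 on the log2(TPM + 1) scale, which understates changes of low genes.

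ENSBTAG00000040103, of 1352 bases, was high in crossbred at day 7 alone. Its counts were 266 and 240 in crossbred and 8 and 9 in Tharparkar, a log2 difference of -3.91 (-5.44 to -3.21). At day 0 the breeds were close, with 20 and 19 counts in crossbred and 17 and 16 in Tharparkar, a log2 difference of 0.21 (-0.89 to 1.17). Its level at day 7 was 28.6 TPM in crossbred and 1.38 TPM in Tharparkar.

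ENSBTAG00000009812, of 1482 bases, was the most abundant of the 4 IDs on the CPM scale, at 150 CPM in crossbred and 11.6 CPM in Tharparkar at day 7. The counts behind this were 1310 and 1291 in crossbred and 58 and 59 in Tharparkar, a log2 difference of -3.67 (-4.12 to -3.33). At day 0 it stood the other way, with 223 and 229 counts in crossbred and 529 and 533 in Tharparkar, a log2 difference of 1.69 (1.48 to 1.94). Its files were apart at day 7 by the rule for eligible IDs, and at day 0 both Tharparkar files lay above both crossbred files. The files of a group share most of their reads, so this is no replicate check.

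**Figure D5:**
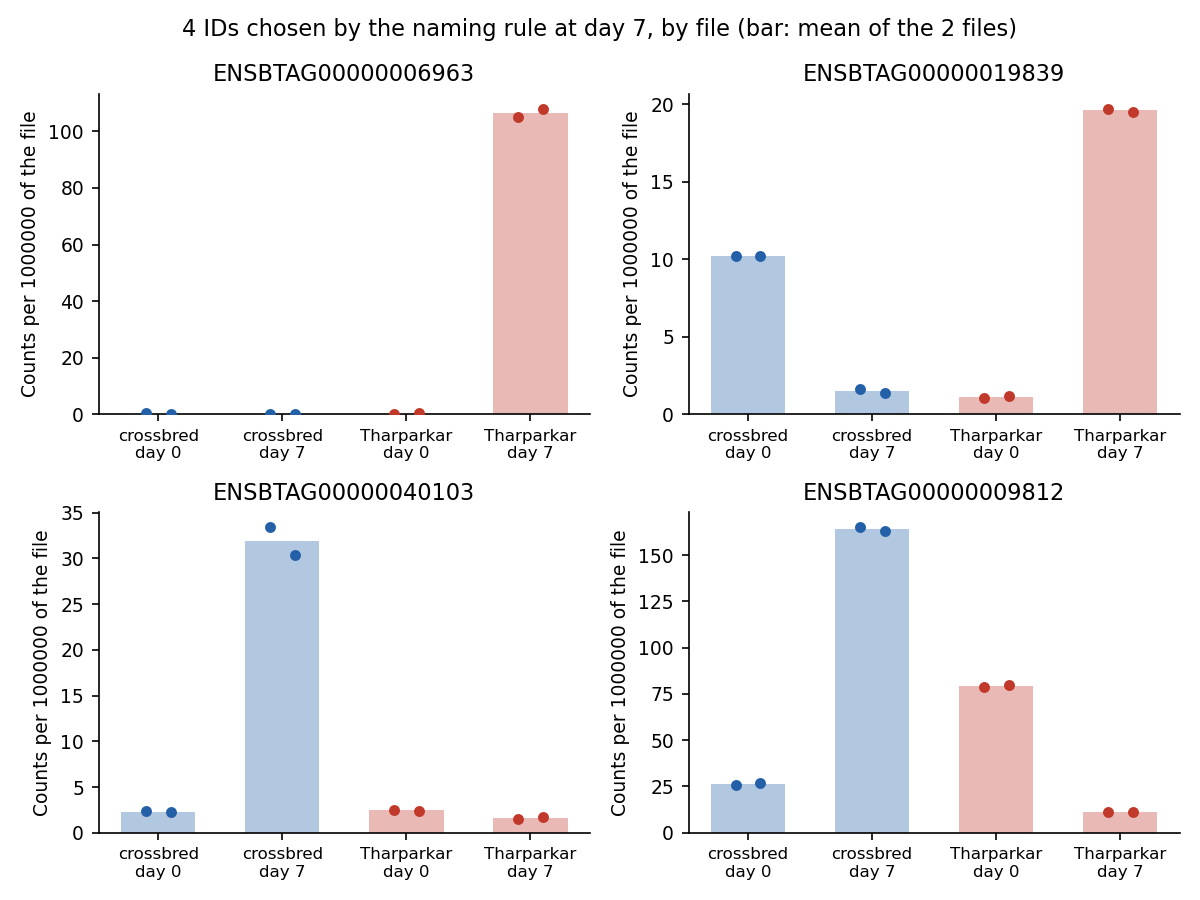
Counts per 1000000 of the file total (vertical axes, each with its own scale from 0) of 4 IDs in the 8 files, with a point per file and a bar at the mean of the 2 files of a group, crossbred in blue and Tharparkar in red. The upper 2 IDs were high in Tharparkar at day 7 and the lower 2 in crossbred at day 7.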

How the data were processed

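Per the submitters' processing notes, Bowtie2 and RSEM were used. Their versions, the genome build, the annotation and any filter are not given in the sources used here. Each deposited table lists expected counts, TPM and FPKM per Ensembl gene ID, per the file headers. All 8 tables list the same 24596 IDs.

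The expected counts of the 2 files of a group were averaged, unrounded. Low genes were removed with edgeR 4.0.16 (filterByExpr over the 4 mean libraries, R 4.3.3), TMM factors were computed, and log2 CPM was taken with a prior count of 2. The TMM factors were 1.09 in crossbred and 0.974 in Tharparkar at day 7. A gene was counted at an absolute difference of 1 log2 unit. Intervals are exact Clopper-Pearson 95% intervals on the rounded mean counts. Counts within 0.005 of a whole number were taken as whole. The fold step was checked on simulated counts. The 29 gene lists drawn up by symbol could not be evaluated, since 0 of their 757 symbols occur in the tables. The comparison, lists and rules were chosen with earlier results of these data known. Alternatives were DESeq2 1.42.0 size factors, total counts, other filters, a prior count of 0.5, TPM and FPKM, 1 file per group, a replicate block, the day 7 libraries alone, and whole counts.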

Additional observations from a re-analysis of the deposited data

Results flagged for a closer look

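The breed difference changed direction between the days for 2 of the 4 IDs described. For ENSBTAG00000019839 both Tharparkar files lay below both crossbred files at day 0 and above them at day 7, and the log2 difference moved by 6.43. For ENSBTAG00000009812 the Tharparkar files lay above the crossbred files at day 0 and below them at day 7, a change of -5.36 log2 units. Neither change was tested, since each breed and day is 1 pool whose 2 files share most of their reads.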

How the results depend on the processing

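Of 73 values that 15 alternatives gave for 5 summary results, 18 moved beyond their limits. Those limits were 1.5 times a count or the 95% Wilson interval of a share. The log2 differences of the 4 IDs kept their signs in 57 of 57 values. These IDs were chosen for large differences and the alternatives reuse the same libraries, so nothing is read from that. With a mean of at least 10 CPM, 185 genes were higher and 523 lower in Tharparkar at day 7, a higher share of 26.1%, with 1 gene past 1 log2 unit in the same direction at both days and 96 in opposite ones; fewer genes enter. With TPM, 209 were higher, a share of 15.3%, with 16 genes in the same and 125 in opposite directions. With FPKM, 249 were higher, a share of 20.7%, with 14 and 132. Total counts gave a share of 20.7%, and the day 7 libraries alone 30.2%. Without a filter 101 genes kept their direction (367 turned it), with a prior count of 0.5, 81 did (370 turned it), and with the filter on the day 7 libraries alone, added after seeing the data, 27 did. Apart from the filters, the cause was not tested. Leaving out 1 day 7 file gave 587 to 604 higher and 1136 to 1157 lower genes. The 2 files of a group share most of their reads, so this and the replicate block (594 higher and 1155 lower, from the mean of same-numbered ratios) show only file noise. Depth limits genes near 3 counts, and 1 pool a side limits all results.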

Other observations

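Genes with counts that are not whole in the 4 day 7 files share reads with similar genes. They passed 1 log2 unit at day 7 in 19.5% of 1214 cases, against 14.3% of 10497 genes with whole counts. At day 0 these shares were 10.8% and 6.58%, so a gap was there before heat. They are not matched for abundance. Genes with 2 or more transcripts listed passed 1 log2 unit at day 7 in 15.7% of 1135 cases. Genes with 1 transcript did so in 14.8% of 10576.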
